A study of Mus musculus with 12 samples.

Results

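Mitochondrial ribosomal proteins were followed through cardiac differentiation of mouse embryonic stem cells. The genes were chosen by name: every gene whose platform symbol starts with Mrpl or Mrps followed by a number, each read by the brightest of the probe sets that carry only its symbol. This gave 76 genes of 18193 named on the array, 47 of the large subunit (Mrpl) and 29 of the small subunit (Mrps). The naming rule uses no measured value beyond the pick of the brightest probe set. The family itself was chosen with earlier results of these data known. Of the named genes 13145 passed the filter on low signals, which asked for a signal over the median of the array in 3 or more of the 12 arrays, and the 76 were over it on all 12. Mrpl30 and Mrpl53 were left out, since their probe sets also name another gene.

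The mitochondrial ribosome, or mitoribosome, translates the few proteins that mitochondrial DNA encodes, all of them parts of the respiratory chain and ATP synthase in the inner membrane. Its RNAs are transcribed from mitochondrial DNA, whereas its proteins are encoded in the nucleus, made in the cytosol and imported. Part of them descend from the ribosome of the bacterial ancestor and part are found only in mitochondria, where they replace lost stretches of ribosomal RNA or anchor the particle to the inner membrane. Embryonic stem cells hold few and immature mitochondria, while heart muscle is among the tissues richest in them.

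All RNA came from the CGR8 mouse embryonic stem cell line, grown without feeder cells, and was hybridized to 12 Affymetrix Mouse 430 2.0 arrays, 3 for each of 4 stages. ES-LIF(+) cells were kept with leukemia inhibitory factor (LIF), which holds them undifferentiated, and ES-LIF(-) cells had spent 48 h without it. Cardiopoietic cells (CP) and cardiomyocytes (CM) both derived from stem cells stimulated in a cocktail of growth factors and interleukins and were enriched on Percoll density gradients, CP after 5 days in 3% serum with 30 ng/ml TNFα and CM after 9 days in 20% serum. Stage therefore cannot be told apart from serum, TNFα, time in culture, the cocktail and the Percoll enrichment. The study states that each condition was sampled independently on 3 occasions. Signals are scaled intensities without unit, and a signal of one probe set cannot be set against that of another.

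The array-wide facts that bear on these genes are few. The median signal of all probe sets lay between 101 and 110.9 in ES-LIF(+), 104.3 and 110.2 in ES-LIF(-), 128.9 and 136.3 in CP and 127.7 and 144.1 in CM, so that the median of all probe sets moved by 0.28 on the log2 scale in CP and 0.32 in CM against ES-LIF(+) with the arrays scaled to a common trimmed mean. Arrays of a stage differed by root mean square log2 distances of 0.41 to 0.51, and arrays of different stages by at least 0.56. The summed signal of 8 cardiomyocyte markers was 124100 to 147700 in CM, 2399 to 2832 in CP and at most 1426 in both stem cell stages, and all 8 were called higher in CM. The 7 fibroblast and mesenchyme markers were all called higher in CP and in CM, with summed signals of 93690 to 100400 in CP, 49870 to 50890 in CM and at most 1670 in the stem cell stages. The 8 stem cell markers summed to 17780 to 24780 in CM, 64560 to 71000 in CP, 55610 to 61020 in ES-LIF(-) and 84190 to 87150 in ES-LIF(+), so all ES-LIF(-) arrays lay below all CP arrays. Blood markers summed to 632.4, 2579 and 17570 on the CM arrays and at most 216 elsewhere. The part of this mixture of cells in the results below was not tested, and in bulk RNA fewer cells of a type and less RNA per cell cannot be told apart.

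Mitochondrial ribosomal protein transcripts were highest in the stem cell stages and lower in CP and CM. The mean log2 signal of the 76 genes was 11.143 to 11.227 on the ES-LIF(+) arrays, 11.115 to 11.159 on the ES-LIF(-) arrays, 10.793 to 10.807 on the CP arrays and 10.718 to 10.789 on the CM arrays, and every CP and CM array lay below every stem cell array. The mean signal was highest in ES-LIF(+) for 42 of the 76 genes (55.3%), against 21.5% of all tested genes, and lowest in CM for 43 (56.6%), against 36.2%. In the moderated F test across the 4 stages 63 of 76 genes changed, where 73.1% of all tested genes did. The heat map of all members, by their brightest probe sets, shows this as a block of genes that are high on the 6 stem cell arrays. A minority barely moved, and Mrps6 is the one gene called higher in CP and CM on these probe sets.

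**Figure D1:**
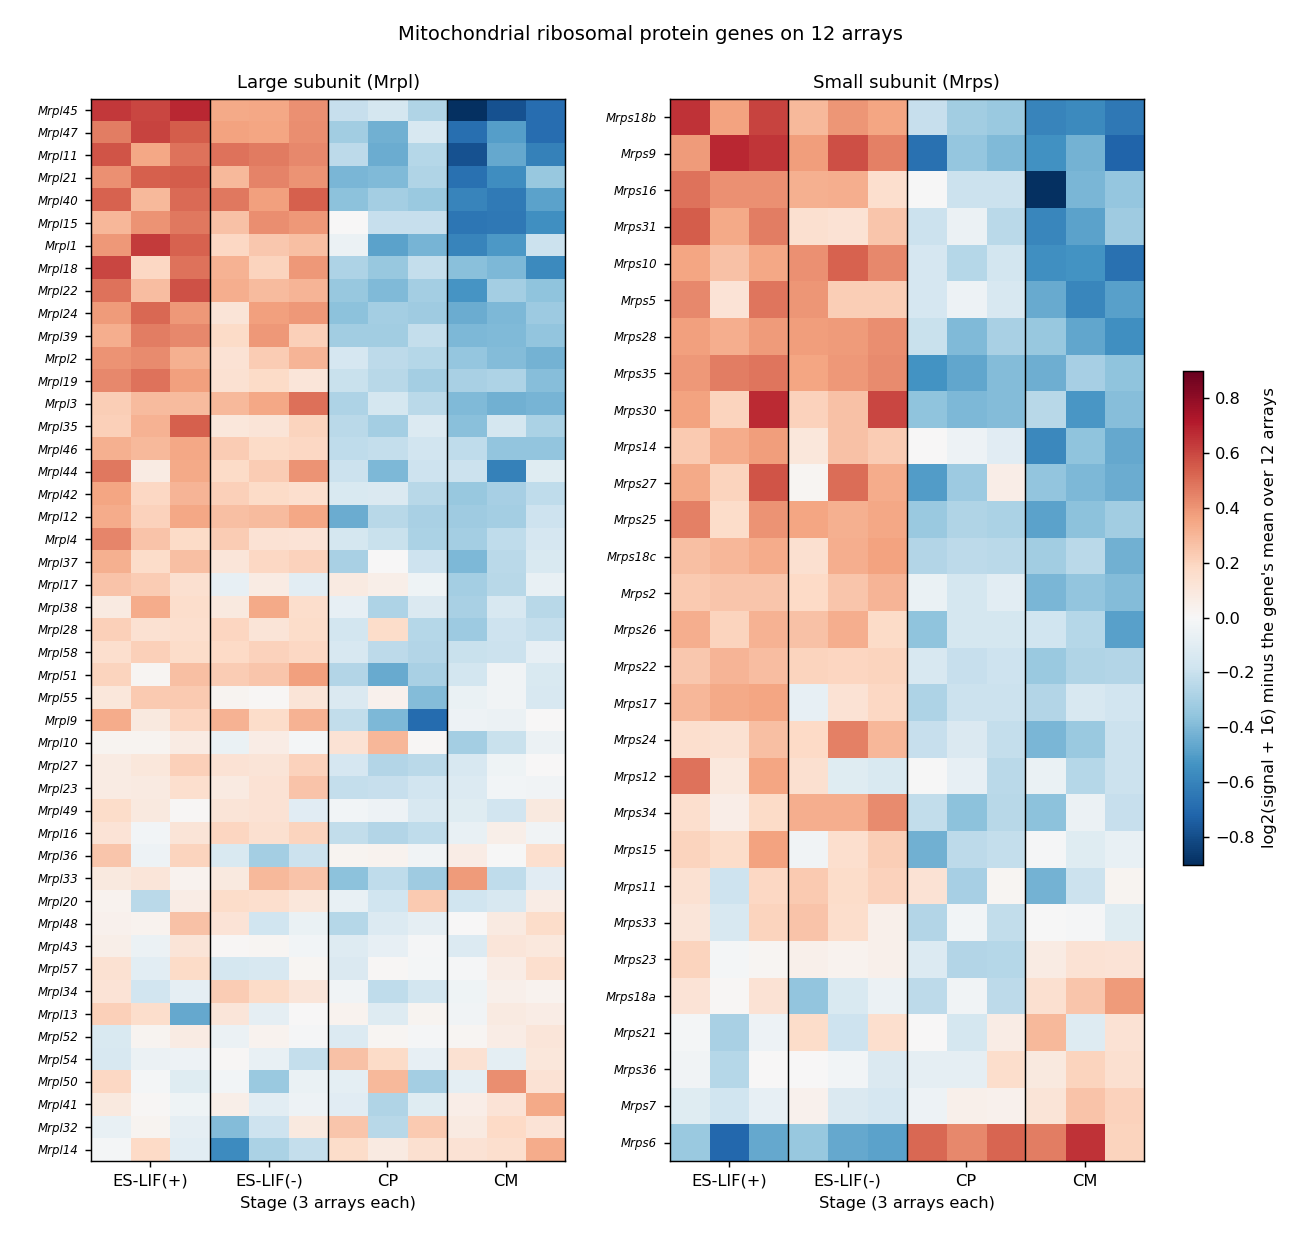
Rows are the 76 mitochondrial ribosomal protein genes, large subunit left and small subunit right, ordered by their change in CM against ES-LIF(+), and columns are the 12 arrays, 3 for each stage. Colour gives log2(signal + 16) minus the gene's mean over the 12 arrays, cut at 0.9 in each direction, and Mrps6 is the only row that is low on all 6 stem cell arrays and high on all 6 CP and CM arrays.

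Between CP and ES-LIF(+), 22 of the 76 genes were called lower and 1 higher, a call being a change of more than 1.5 fold with an adjusted p below 0.05. Over all tested genes 13.3% were called lower and 18.7% higher. With the filter set to all arrays, which every member passed, 15.2% of genes were lower and 15.7% higher. The median log2 fold change of the 76 genes was −0.44, against 0.04 for all tested genes, a difference of −0.48, and 66 of 76 values were negative. Without the fold threshold 54 were lower and 1 higher (all tested genes: 25.9% and 26.1%). The 3 CP arrays lay below all 3 ES-LIF(+) arrays for 57 genes and above them for 2, where 29.8% and 30.8% of all tested genes did so. The typical change was thus modest, and 53 genes did not pass the call. After each array was centred on its median 50 genes were called lower, where 27.4% of all tested genes were, and after quantile normalization 16 (21.1%), where 16.5% were.

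Mrps9, a small subunit protein with a bacterial homolog, had the deepest fall in CP by the brightest probe sets. Its signals were 743, 933 and 903 in CP, against 1560, 1921 and 1871 in ES-LIF(+), a log2 fold change of −1.04 ± 0.12 (SE, n = 3 arrays per stage, limma adjusted p = 3.76e-06). Mrps35, a mitochondria-specific small subunit protein, read 1085, 1139 and 1204 in CP, against 2087, 2189 and 2218 in ES-LIF(+) (−0.91 ± 0.08, adjusted p = 1.83e-07). In both genes the arrays of the stages were far apart. The 4 tested probe sets of Mrps9 ranged from −1.04 to 0.0038 in CP, and 2 of them were called lower. Mrpl21, a large subunit protein with a bacterial homolog, read 1785, 1808 and 1975 in CP, against 3179, 3465 and 3486 in ES-LIF(+) (−0.86 ± 0.09, adjusted p = 1.94e-06), but its other tested probe set was at 0.39 (adjusted p = 0.205) and the mean over its probe sets at 0.25 (adjusted p = 0.386). Mrpl1, the protein of the mobile stalk at which spent tRNA leaves the ribosome, read 674, 494 and 519 in CP, against 919, 1091 and 1015 in ES-LIF(+) (−0.83 ± 0.13, adjusted p = 0.000124). The remaining largest falls were those of Mrpl45 (−0.85), Mrpl47 (−0.83), Mrps18b (−0.83) and Mrps30 (−0.80), and none of these 8 genes had overlapping arrays. Mrpl47 had another tested probe set at −0.06 and Mrpl1 another at −0.46, and neither was called. The other called falls, all smaller, had log2 fold changes of −0.60 to −0.79.

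**Figure D2:**
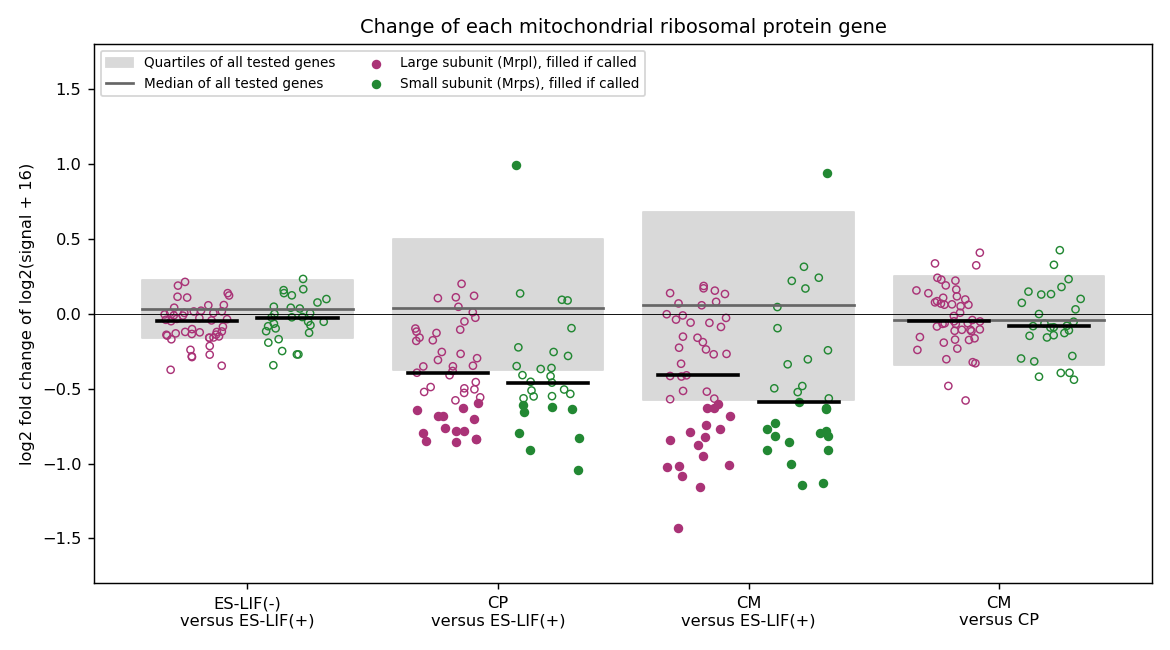
Points are the log2 fold changes of single genes in 4 comparisons, large subunit (purple) and small subunit (green), filled where the gene was called, with black bars at their medians. Grey boxes span the quartiles of all tested genes with their median as a grey line; the members of both subunits sit low in CP and CM against ES-LIF(+), with medians of −0.39 and −0.46 in CP and −0.41 and −0.59 in CM, and close to the grey line in the other comparisons.

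Between CM and ES-LIF(+), 32 of the 76 genes were called lower and 1 higher, where 23.9% of all tested genes were lower and 25.7% higher. With the filter set to all arrays these shares were 27.5% and 22%. The median of the 76 genes was −0.51, against 0.06 for all tested genes, a difference of −0.57, and 62 values were negative. Without the fold threshold 50 were lower and 3 higher (all tested genes: 32.5% and 32.8%), the 3 being Mrps6, Mrps7 (0.31) and Mrps36 (0.24), of which Mrps7 and Mrps36 were at −0.0060 and −0.08 after median centring. The arrays did not overlap for 52 genes that were lower and 5 that were higher in CM, where 33.9% and 35.3% of all tested genes did so. CP and CM were set against the same ES-LIF(+) arrays, so the comparisons are not independent of each other.

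Mrpl45, the protein that holds the mitoribosome on the inner membrane beside the exit of the peptide tunnel, fell most and had the largest F of all members (167, adjusted p = 6.14e-10). Its signals were 6346, 6203 and 6537 in ES-LIF(+), 5163, 5202 and 5419 in ES-LIF(-), 3521, 3652 and 3377 in CP and 2159, 2365 and 2532 in CM. No stage overlapped another, and the signal stepped down at each stage in this order. The log2 fold change in CM was −1.43 ± 0.07 against ES-LIF(+) (SE, n = 3 arrays per stage, limma adjusted p = 2.16e-10) and −0.58 ± 0.07 against CP (adjusted p = 1.62e-05). The change against CP was short of the 1.5-fold threshold.

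Mrpl47, which also lies by the tunnel exit and has a bacterial homolog, read 979, 1113 and 971 in CM, against 2168, 2412 and 2305 in ES-LIF(+) (−1.16 ± 0.09, adjusted p = 3.06e-08). Its other tested probe set was at −0.55 in CM and was not called. Mrps18b, a mitochondria-specific member of the S18 family, read 1625, 1653 and 1571 in CM, against 3882, 3167 and 3771 in ES-LIF(+) (−1.15 ± 0.08, adjusted p = 1.32e-08). Both had CP signals in between, 1265, 1162 and 1423 for Mrpl47 and 2132, 1980 and 1949 for Mrps18b. Mrps9 read 812, 887 and 717 in CM and so stood level with its CP signals (−1.13 ± 0.12 against ES-LIF(+), adjusted p = 6.25e-07; −0.09 against CP, adjusted p = 0.607).

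Mrpl11, at the base of the stalk that binds translation factors, read 1516, 1894 and 1715 in CM, against 3882, 3341 and 3684 in ES-LIF(+) (−1.09 ± 0.09, adjusted p = 7.24e-08). Mrpl40, of the central protuberance that touches the small subunit, read 1230, 1193 and 1326 in CM, against 2695, 2285 and 2654 in ES-LIF(+) (−1.01 ± 0.08, adjusted p = 5.79e-08). In both genes the CM arrays also lay below the CP arrays. Mrpl15, a large subunit protein with a bacterial homolog whose probe set is of the x_at kind that can share probes with other transcripts, read 3450, 3463 and 3693 in CM, against 6688, 7190 and 7562 in ES-LIF(+) (−1.01 ± 0.08, adjusted p = 2.46e-08). By this probe set it passed the adjusted p but not the fold in CP (−0.53 ± 0.08). Of its 8 tested probe sets 3 were called lower in CP (range −0.99 to −0.08) and 6 in CM (−1.51 to −0.50). Mrps10, second by F, read 1938, 1795 and 1915 in CP, 1464, 1476 and 1344 in CM and 2756, 2584 and 2737 in ES-LIF(+), with a fall of 0.91 on the log2 scale in CM (adjusted p = 4.04e-08). Mrpl21 (−1.02) and Mrps16 (−1.0) completed the genes at or beyond 1 log2 unit, Mrps16 being named after its value was seen. For Mrpl21 the mean over its probe sets was at 0.088 in CM (adjusted p = 0.746).

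**Figure D3:**
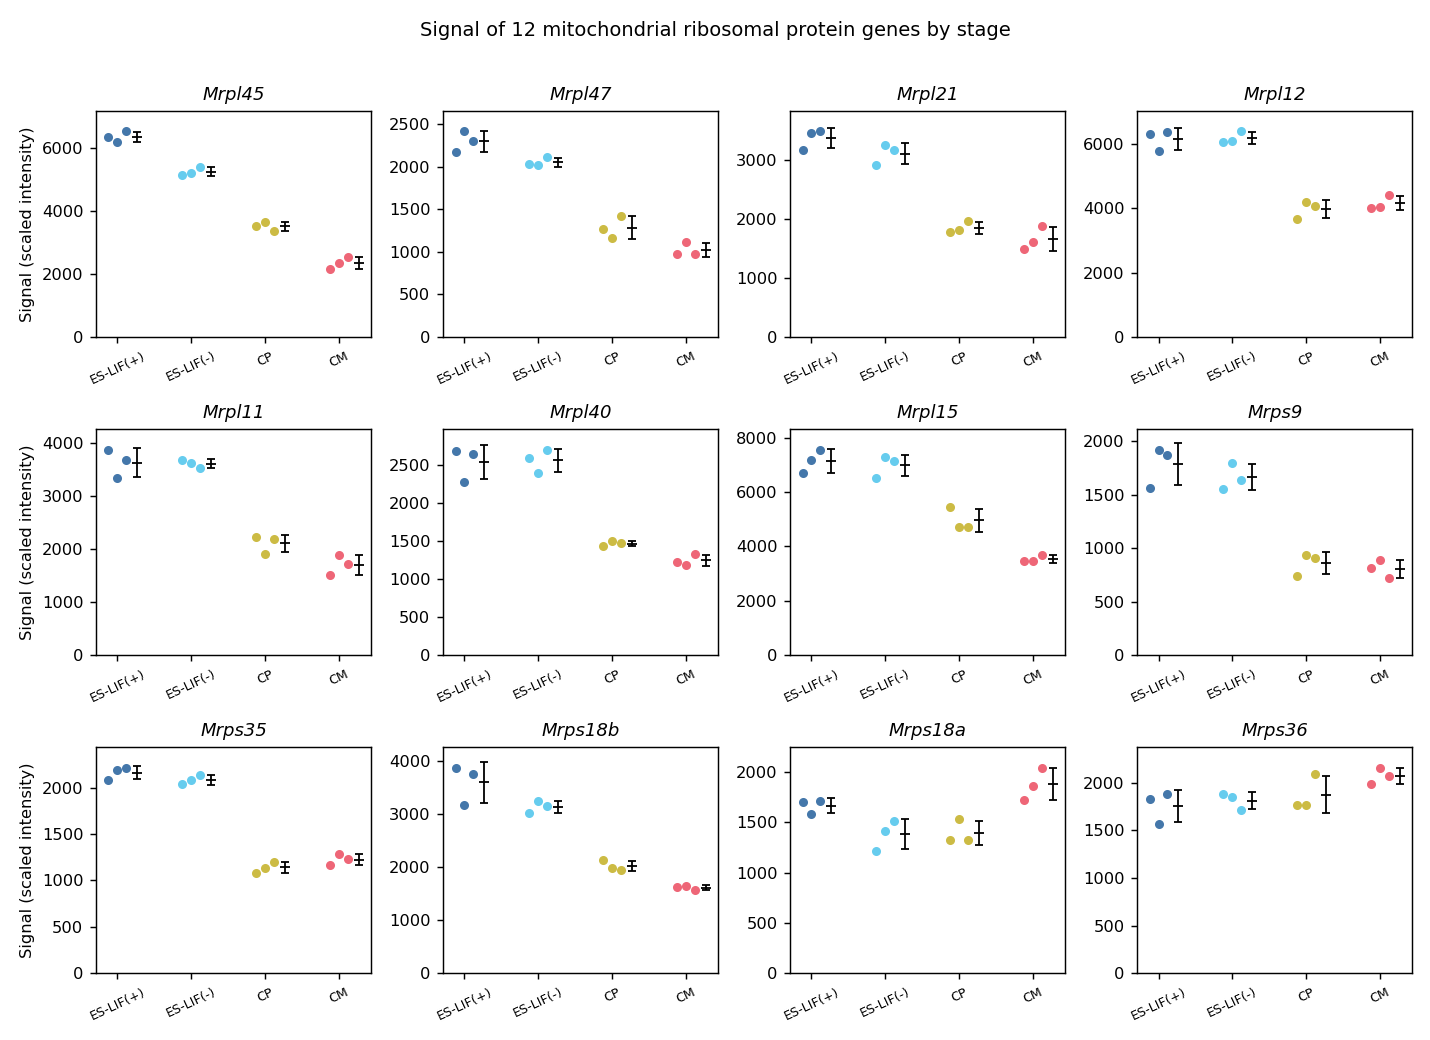
Signals (scaled intensity, linear axis from 0) of 12 genes on the 3 arrays of each stage (points), with the mean and SD beside them. Mrpl45 steps down at every stage, most others drop between the stem cell stages and CP, Mrpl12 is at one level in CP and CM, and Mrps18a and Mrps36 have their highest mean signals in CM.

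Withdrawal of LIF for 48 h left the family nearly where it was. None of the 76 genes was called in ES-LIF(-) against ES-LIF(+) by limma, where 3.68% of all tested genes were lower and 4.0% higher, and the median log2 fold change was −0.05 (all tested genes: 0.03). At an unadjusted p under 0.05 there were 14 genes (18.4%), where 27.8% of all tested genes were. Without the fold threshold 4 passed, all lower and all of the large subunit (all tested genes: 6.33% lower and 7.95% higher): Mrpl14 (−0.37), Mrpl36 (−0.35), Mrpl19 (−0.29) and Mrpl45 (−0.27, adjusted p = 0.0184). Mrpl14, Mrpl36 and Mrpl19 are named because they make up this count. The arrays of the stages did not overlap for 15 genes that were lower, Mrpl45 among them, and 5 that were higher in ES-LIF(-), where 13.7% and 17.6% of all tested genes did so.

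CM and CP differed little from each other by the brightest probe sets. On these, no member was called by limma in CM against CP, where 10.4% of all tested genes were lower and 9.04% higher. The median was −0.06 (all tested genes: −0.04). Over all tested probe sets, 2 of 8 for Mrpl15 (range −1.10 to 0.38) and 1 of 5 for Mrps5 (−0.75 to −0.26) were called lower. At an unadjusted p under 0.05 there were 27 genes (35.5%), where 45.2% of all tested genes were. Without the fold threshold 14 were lower and 6 higher (all tested genes: 21.9% and 14.8%). The CM arrays lay below all CP arrays for 19 genes and above them for 13, where 28.1% and 21.9% of all tested genes did so. Mrpl45 (−0.58), Mrpl15 (−0.48), Mrps10 (−0.40), Mrps18b (−0.32), Mrpl47 and Mrpl11 were among the lower ones. Mrps18a was the largest of the higher ones (0.42 ± 0.10, adjusted p = 0.00388), with signals of 1725, 1861 and 2043 in CM, against 1328, 1530 and 1325 in CP.

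Large and small subunit genes were both lower in CP and CM. In CP 14 of 47 large subunit genes were called lower (29.8%) and none higher, and 8 of 29 small subunit genes were lower (27.6%) and 1 higher. In CM these were 17 of 47 (36.2%) and 15 of 29 (51.7%), with 1 small subunit gene higher. Of all tested genes 13.3% were lower and 18.7% higher in CP, and 23.9% lower and 25.7% higher in CM. The median log2 fold change was −0.39 for the large and −0.46 for the small subunit in CP, and −0.41 and −0.59 in CM, so the medians stood 0.07 and 0.18 apart. The distance in CP was 0.03 under quantile normalization, and that in CM was 0.11 with the mean over probe sets. On single arrays the mean log2 signal of the large subunit genes exceeded that of the small subunit genes by 0.117 to 0.232 in ES-LIF(+), 0.121 to 0.149 in ES-LIF(-), 0.153 to 0.211 in CP and 0.197 to 0.271 in CM. The ES-LIF(+) range overlapped that of each other stage. Only ES-LIF(+) replicate 2 (0.232) lay within the CM range, while replicates 1 and 3 (0.161 and 0.117) lay below it. Overlap of ranges of 3 arrays cannot decide whether one subunit shifted against the other, and this was not tested. The ES-LIF(-) range lay below those of CP and CM, and that difference was not tested. Structures of mammalian mitoribosomes place the products of Mrps18a and Mrps30 in the large subunit, and Mrps36 has since been described as part of the 2-oxoglutarate dehydrogenase complex. With these genes moved or left out, the medians stood 0.09 apart in CP and 0.20 in CM.

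Within the subunits the ancestral and the mitochondria-specific proteins were split by lists. Of the large subunit, 11 of 28 genes with a bacterial homolog and 3 of 19 mitochondria-specific genes were lower in CP, and 12 of 28 and 5 of 19 in CM. Of the small subunit, 1 of 15 genes with a bacterial homolog (Mrps9) and 6 of 11 mitochondria-specific genes were lower in CP, and 7 of 15 and 7 of 11 in CM. Over all tested genes 13.3% were lower in CP and 23.9% in CM. These counts depended on the scaling, and no test of the split was made. After median centring 18 of 28 and 11 of 19 large subunit genes, and 11 of 15 and 9 of 11 small subunit genes, were lower in CP. The share of all tested genes lower in CP was then 27.4%. Of 6 genes at the exit of the peptide tunnel, 4 were lower in CP and 5 in CM, with medians of −0.78 and −0.83. These were Mrpl45, Mrpl47, Mrpl22 (−0.79 in CP and −0.85 in CM), Mrpl24 (−0.76 and −0.82) and, in CM alone by call, Mrpl44 (−0.56 and −0.60), whereas Mrpl23 was at −0.30 and −0.16. Of 6 genes of the central protuberance 2 were lower in CP and 3 in CM (medians −0.44 and −0.52).

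The stalk is where translation factors dock, and its genes went apart. Mrpl12, whose product forms the flexible stalk and also binds the mitochondrial RNA polymerase, read 3664, 4200 and 4079 in CP, 4008, 4054 and 4401 in CM and 6323, 5778 and 6384 in ES-LIF(+). Its CP and CM arrays overlapped each other and lay below all stem cell arrays. The fall was 0.63 on the log2 scale in CP (SE 0.07, adjusted p = 4.99e-06), and in CM the value was −0.57 (adjusted p = 6.26e-06), just under the fold threshold. Mrpl11 fell in both, as above, and Mrpl10, the anchor of Mrpl12, was at 0.10 in CP (adjusted p = 0.329) and −0.23 in CM (adjusted p = 0.0288).

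The decoding protein Mrps12 and the S18 family are followed whatever their values. Mrps12 read 1934, 1841 and 1637 in CP, 1855, 1617 and 1693 in CM and 2721, 2071 and 2478 in ES-LIF(+), with log2 fold changes of −0.42 and −0.48 that passed the adjusted p (0.00593 and 0.00141) but not the fold. The S18 genes differed in their calls. Mrps18b fell in CP and CM. Mrps18c, the direct homolog of bacterial S18, fell in CM (−0.63 ± 0.08, adjusted p = 7.21e-06), with 1256, 1320 and 1155 in CM, against 1892, 1935 and 1979 in ES-LIF(+). Mrps18a was called in neither and was at 0.17 in CM (adjusted p = 0.154). Mrps30 read 1513, 1468 and 1478 in CP and 1630, 1349 and 1487 in CM, against 2506, 2237 and 3110 in ES-LIF(+), with log2 fold changes of −0.80 ± 0.12 in both (adjusted p = 8.17e-05 and 4.24e-05). Mrps36 read 1990, 2158 and 2070 in CM, against 1826, 1566 and 1878 in ES-LIF(+), all 3 CM arrays above all 3 ES-LIF(+) arrays (0.24 ± 0.09, adjusted p = 0.0337), and was not called.

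Mrps6, a small subunit protein with a bacterial homolog, was the only member called higher by its brightest probe set. It read 2982, 2816 and 3000 in CP, 2870, 3274 and 2398 in CM, 1644, 1511 and 1488 in ES-LIF(-) and 1647, 1270 and 1509 in ES-LIF(+). All CP and CM arrays lay above all stem cell arrays, by log2 fold changes of 0.99 ± 0.11 in CP (adjusted p = 4.37e-06) and 0.94 ± 0.11 in CM (adjusted p = 3.24e-06) against ES-LIF(+). Its second probe set gave larger changes, 1.23 and 1.34 (adjusted p = 2.14e-06 and 3.35e-07). In the RefSeq gene table the locus overlaps Slc5a3, the sodium-coupled inositol transporter, and Slc5a3 was itself higher: it read 1607, 1509 and 1782 in CP, 799, 996 and 853 in CM and 248, 254 and 285 in ES-LIF(+) (2.57 ± 0.12 in CP and 1.69 ± 0.12 in CM). Unlike Mrps6, Slc5a3 was lower in CM than in CP (−0.88, adjusted p = 4.12e-05). Which transcripts the Mrps6 probe sets read at this locus was not tested, and Slc5a3 was chosen after its values were seen.

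**Figure D4:**
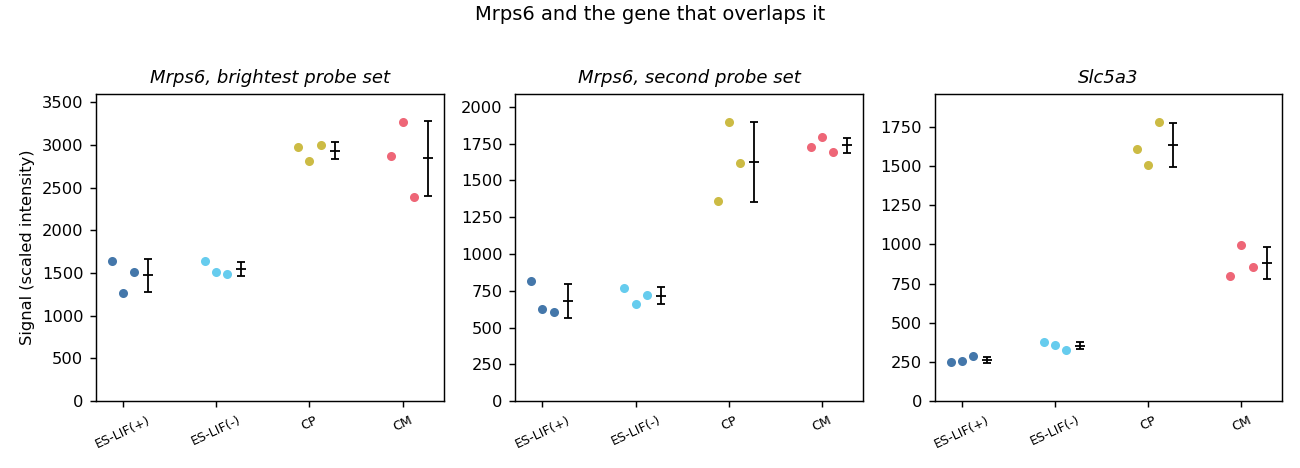
Signals (scaled intensity, linear axes from 0) of the brighter and the dimmer Mrps6 probe set and of Slc5a3 on the 3 arrays of each stage, with mean and SD. Both Mrps6 probe sets are at one level in CP and CM, above the stem cell stages, while Slc5a3 averages 1633 in CP, 882 in CM and 262 in ES-LIF(+).

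Several genes are read by more than 1 probe set, and these did not all give the same value. Of 37 members with several tested probe sets, 25 had all of them on the same side of 0 in CP and 24 in CM. Mrpl17 had 1 of 3 tested probe sets called higher in CP and in CM, and none called lower. Its probe sets ranged from −0.57 to 0.74 in CP and from −0.42 to 0.86 in CM. Mrpl3 also had 1 of 3 called higher and none lower in CP, with a range of −0.49 to 0.93. Calls in opposite directions were found only for Mrpl3, a large subunit protein with a bacterial homolog: its brightest probe set averaged 1399 in CM, against 2256 in ES-LIF(+) (−0.68 ± 0.07), whereas a dim one averaged 225 in CM, against 97.1 in ES-LIF(+) (1.12, adjusted p = 0.000359). For Mrpl21 a dim probe set averaged 312.5 in CM, against 237.5 in ES-LIF(+), and was not called (0.41, adjusted p = 0.168). Mrpl13 was flat by its brightest probe set (0.01 in CP and 0.07 in CM), where the ES-LIF(+) arrays spread from 2020 to 3248, but a probe set of lower signal was at −0.55 in CP (adjusted p = 0.000163) and −0.62 in CM (adjusted p = 3.34e-05), where it was called. Its remaining tested probe set was at −0.46 in CP (adjusted p = 0.0386) and −0.71 in CM (adjusted p = 0.00232) and was also called in CM. Mrpl13, Mrpl17 and Mrpl21 are singled out here because their probe sets disagree. In all, 19 members overlap another protein-coding gene in the RefSeq table, Mrps6 among them.

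At the other end, 19 genes in CP and 21 in CM stayed within 0.2 log2 units of ES-LIF(+), among them Mrpl54, Mrpl32 and Mrpl20. Mrpl14, Mrps21 and Mrps7 were on the positive side in both, at 0.11, 0.09 and 0.14 in CP and 0.19, 0.22 and 0.31 in CM, none of them called, and all of these values were negative after median centring. These genes were named after their values were seen.

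Promoters of these genes are known in human and mouse for binding sites of NRF1 and of the ETS factor GABP, which drive many nuclear genes for mitochondrial proteins. Windows of 300 bases, 250 before to 50 after the annotated start, were found for 67 of the 76 genes in the RefSeq promoter table (GRCm38.p6). Short patterns were searched on both strands, and none of them contains another. The NRF1 pattern, GCGCA followed by any base and GCGC, was found for 17.9% of the 67 genes, against 7.2% of all protein-coding genes with a window. The GABP pattern CCGGAAG was found for 37.3%, against 12.9%. The YY1 pattern ATGGCGGC was found for 16.4%, against 3.5%. It begins with the letters of a start codon, and whether its matches lie in coding sequence was not tested. The E-box CACGTG was found for 7.5%, against 8.9%, and the TATA box TATAAA for 7.5%, against 14.8%. A match is a description of letters, not a site that was shown to be bound. The following are shown because, by the brightest probe sets, Mrpl45 and Mrps9 had the deepest falls and Mrps6 is the only gene called higher. Capitals mark NRF1 matches on either strand, which begin 120 and 38 bases before and 15 bases after the start in Mrpl45 (chr11:97315466-97315765, + strand) and 5 bases before it in Mrps9 (chr1:42850983-42851282, + strand), while Mrps6 (chr16:92058086-92058385, + strand) has no NRF1 or GABP match in its window.
Mrpl45: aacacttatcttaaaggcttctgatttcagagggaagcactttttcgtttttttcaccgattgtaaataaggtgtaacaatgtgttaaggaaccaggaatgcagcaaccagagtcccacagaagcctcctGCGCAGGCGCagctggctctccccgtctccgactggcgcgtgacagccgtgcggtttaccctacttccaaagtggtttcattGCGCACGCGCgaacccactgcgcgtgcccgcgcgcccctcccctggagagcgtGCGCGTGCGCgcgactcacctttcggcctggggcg
Mrps9: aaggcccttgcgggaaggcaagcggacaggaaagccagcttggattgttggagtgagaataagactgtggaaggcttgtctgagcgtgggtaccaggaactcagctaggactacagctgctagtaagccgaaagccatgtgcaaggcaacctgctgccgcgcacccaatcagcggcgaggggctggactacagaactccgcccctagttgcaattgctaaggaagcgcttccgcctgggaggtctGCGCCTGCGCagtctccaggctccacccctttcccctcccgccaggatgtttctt
Mrps6: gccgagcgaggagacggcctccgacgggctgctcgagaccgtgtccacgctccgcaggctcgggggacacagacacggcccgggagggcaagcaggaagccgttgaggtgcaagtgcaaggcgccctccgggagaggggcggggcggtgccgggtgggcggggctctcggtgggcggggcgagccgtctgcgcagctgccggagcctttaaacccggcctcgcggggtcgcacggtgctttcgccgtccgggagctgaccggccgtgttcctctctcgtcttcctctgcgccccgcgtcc

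The members were then split by these matches, with no test of the split. With an NRF1 match 5 of 12 genes were called lower in CP and 5 of 12 in CM, and without one 14 of 55 and 23 of 55. With a GABP match 5 of 25 were lower in CP and 9 of 25 in CM, and without one 14 of 42 and 19 of 42. The share of all tested genes called lower was 13.3% in CP and 23.9% in CM. The median log2 fold changes in CM were −0.49 with and −0.50 without an NRF1 match, and −0.33 with and −0.55 without a GABP match.

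The genes that build, load and feed the mitoribosome were set beside it from lists. Of 4 tested mitoribosomal proteins with other symbols, 2 were lower in CP and the same number in CM, where 13.3% and 23.9% of all tested genes were. Ptcd3, a small subunit protein, read 1555, 1496 and 1719 in CP and 1407, 1528 and 1327 in CM, against 2788, 2688 and 3003 in ES-LIF(+) (−0.82 ± 0.08 and −0.98 ± 0.08, adjusted p = 1.18e-06 and 6.31e-08). Chchd1 was at −0.69 and −0.73 and was called in both. Dap3, a GTP-binding protein of the small subunit, read 2549, 2499 and 2559 in CP, against 3594, 3742 and 3698 in ES-LIF(+), and at −0.53 in CP and −0.57 in CM passed the adjusted p (4.62e-05 and 1.19e-05) but not the fold.

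Of 23 assembly factors 6 were lower and none higher in CP, and 12 were lower and 1 higher in CM, beside the 13.3% and 23.9% of all tested genes that were lower in CP and CM. After median centring 16 were lower in CP and 17 in CM, where 27.4% and 35.1% of all tested genes were lower, and none was higher. Tfb1m, the methyltransferase of the small subunit RNA, read 369, 315 and 302 in CP and 314, 240 and 300 in CM, against 580, 783 and 760 in ES-LIF(+) (−1.06 ± 0.20 and −1.26 ± 0.20). Fastkd2 (−0.93 in CP), Rpusd4 (−0.86 in CP and −1.28 in CM) and Gtpbp10 (−1.15 in CM), which act on the large subunit and its RNA, were lower as well. Nsun4 was the one assembly factor called in CM against CP, with 658, 693 and 593 in CM, against 419, 402 and 456 in CP (0.59 ± 0.12, adjusted p = 0.00127), a call lost after median centring (0.55, adjusted p = 0.00534). Of 13 translation factors 4 were lower in CP (30.8%) and 3 in CM (23.1%), the share in CM being close to the 23.9% of all tested genes. After median centring 8 were lower in CP and 7 in CM, where 27.4% and 35.1% of all tested genes were. Lrpprc, which stabilizes mitochondrial messenger RNA, read 1386, 1268 and 1345 in CM, against 2865, 2972 and 3116 in ES-LIF(+) (−1.15 ± 0.11, adjusted p = 2.67e-07). Gfm2 (−0.69), a ribosome recycling factor, and Oxa1l (−0.60), the insertase of the inner membrane, were lower in CP, and Tsfm (−0.67) and Guf1 (−0.64) in CM. The elongation factor gene Tufm was not called (−0.27 and −0.44).

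Of 16 mitochondrial tRNA synthetases 7 were lower and none higher in CP, and 8 were lower and 1 higher (Wars2) in CM. Of all tested genes 13.3% were lower and 18.7% higher in CP, and 23.9% lower and 25.7% higher in CM. After median centring 12 were lower in CP and 13 in CM, where 27.4% and 35.1% of all tested genes were lower, and none was higher. Tars2, for threonine, read 822, 779 and 967 in CP and 811, 674 and 855 in CM, against 1889, 1807 and 1809 in ES-LIF(+) (−1.09 ± 0.11 and −1.22 ± 0.11). Rars2 was at −0.92 in CP, Yars2 at −1.19 in CM and Aars2 at −1.65 in CM, the last with 74, 238 and 183 in CM, against 565, 403 and 561 in ES-LIF(+), and so with the largest error (0.28).

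Genes that keep and transcribe mitochondrial DNA, and their regulators, did not all change in the same direction. Of 16 tested, 8 were lower and none higher in CP, and 9 were lower and 3 higher in CM. All tested genes were lower at 13.3% in CP and 23.9% in CM. The 3 higher in CM are 18.75%, below the 25.7% of all tested genes. Tfam, which packages mitochondrial DNA and starts its transcription, read 1943, 1845 and 1976 in CP and 1514, 1346 and 1391 in CM, against 3032, 3234 and 3414 in ES-LIF(+) (−0.74 ± 0.07 and −1.18 ± 0.07, adjusted p = 1.27e-06 and 3.21e-09). Ssbp1, the mitochondrial single-strand binding protein, was lower by log2 fold changes of −0.95 and −1.37. Gabpa, the DNA-binding subunit of GABP, was at −0.78 in CP and −1.47 in CM, and Nrf1, named because its motif was searched, at −0.65 and −1.27, all of them called lower. Polrmt, the mitochondrial RNA polymerase, was at 0.12 in CP (adjusted p = 0.242) and −0.28 in CM (adjusted p = 0.00626) and was not called. The genes called higher in CM were the coactivators Ppargc1a (322, 349 and 289 in CM, against 125, 45 and 73 in ES-LIF(+), 1.87 ± 0.31) and Ppargc1b (0.93 ± 0.25) and the nuclear receptor Esrra (0.82 ± 0.16). Esrra fell short of the fold threshold after median centring (0.50) and after quantile normalization (0.53). Ppargc1b was called lower in CP (−0.99 ± 0.25) and so differed most between CM and CP (1.92 ± 0.25, adjusted p = 2.9e-05). Polg, the DNA polymerase of mitochondria, was the only gene of these lists called in ES-LIF(-) besides Ndufb1, with 4617, 4403 and 4385 in ES-LIF(-), against 2898, 2483 and 2540 in ES-LIF(+) (0.76 ± 0.08, adjusted p = 2.04e-05).

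Subunits of oxidative phosphorylation, the complexes that the mitoribosome helps to build, had few members called lower. Of 75 tested, 2 were lower and none higher in CP (Ndufs1 and Cox6b2), and 1 was lower and 14 higher in CM. The 14 are 18.7%, below the 25.7% of all tested genes called higher in CM. The count against ES-LIF(+) depended on the scaling. After median centring 4 were higher and 3 lower in CM, where 17.4% and 35.1% of all tested genes were. In CP 14 were then lower, where 27.4% of all tested genes were. After quantile normalization 22 were higher in CM, where 21.2% of all tested genes were. Against CP, 32 were higher and 1 lower in CM, with a median of 0.47, where 9.04% of all tested genes were higher. After median centring 23 were higher, where 8.28% of all tested genes were. The largest were the muscle isoforms Cox6a2, with 3019, 3026 and 2636 in CM, against 240, 206 and 159 in CP (3.76 ± 0.19), Cox8b (3.23 ± 0.50) and Cox7a1 (1.35 ± 0.14). Ndufs1, of complex I, read 3056, 3220 and 3130 in CM, against 2074, 1985 and 2095 in CP (0.61 ± 0.07, adjusted p = 8.56e-06), and was at −0.02 in CM against ES-LIF(+). Mitochondrial ribosomal proteins had no member called higher in CM against CP.

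Cytosolic ribosomal proteins, the counterpart outside the mitochondrion, were counted in the same way. Of 44 tested, 2 were lower and 3 higher in CP, with a median of 0.29, and 7 were lower and 1 higher in CM, with a median of −0.04. These shares were below those of all tested genes, 13.3% lower and 18.7% higher in CP and 23.9% and 25.7% in CM. The median in CP was 0.0044 after median centring and −0.04 after quantile normalization, so no direction is given for this family. Rpl12 (−0.94 in CP and −1.70 in CM) and Rps4l (−0.79 and −1.23) fell in both, Rpl14 fell in CM (−1.44), and Rpl27a was higher in both (0.90 and 0.78), though no gene of the list was called higher in CM after median centring. Cytosolic ribosomal proteins have many pseudogenes, and which copies their probe sets read was not tested.

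**Figure D5:**
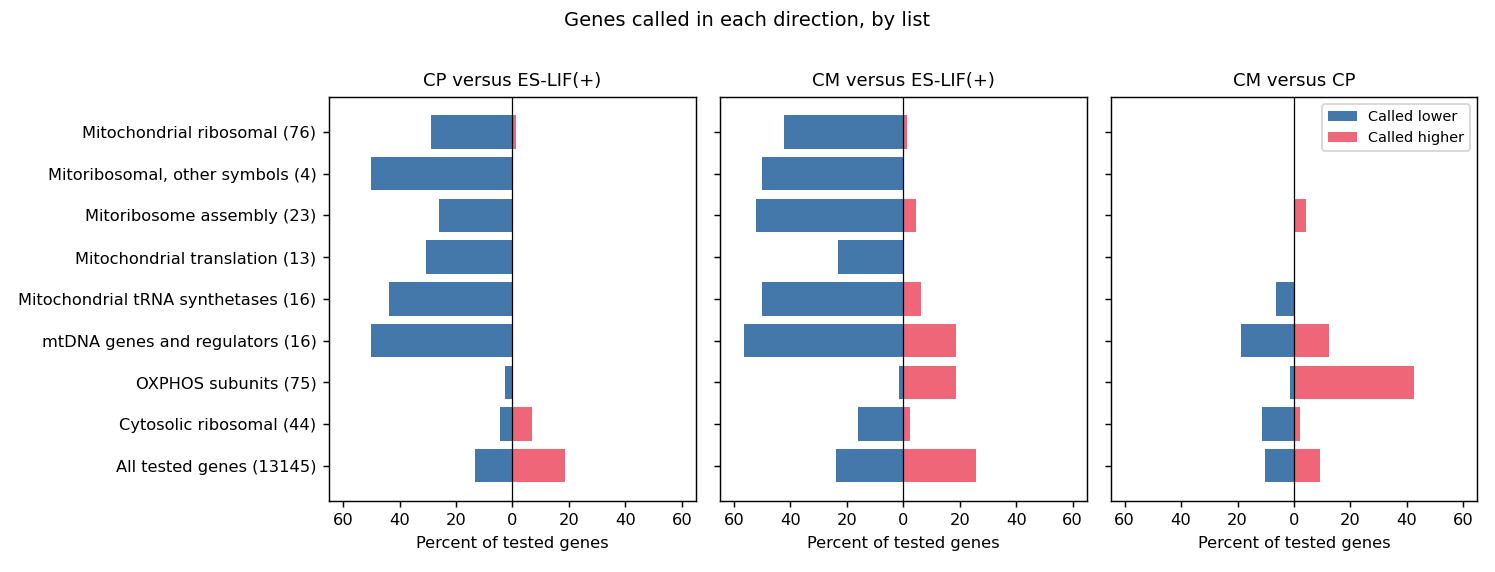
Bars give the percentage of tested genes called lower (left of 0) and higher (right of 0) in each list, with the number tested in parentheses, for CP and CM against ES-LIF(+) and CM against CP. Of the mitochondrial ribosomal proteins 28.9% were lower in CP and 42.1% in CM with 1.32% higher in each, beside 13.3% and 23.9% lower over all tested genes, and the subunits of oxidative phosphorylation stand out to the right in CM against CP.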

How the data were processed

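Expression was measured on 12 Affymetrix Mouse 430 2.0 arrays, 3 per stage. The authors made the deposited signal intensities with Microarray Suite 5.0, and each deposited array has a 2% trimmed mean of 500, so a value is relative to its array. No further scaling was applied, and log2(signal + 16) was analysed. After 64 controls were set aside, 26083 of 45037 probe sets had a signal over the array median in 3 or more arrays. These were fitted over all 12 arrays with limma 3.58.1 (R 4.3.3, empirical Bayes with intensity trend, Benjamini-Hochberg adjustment over all of them), and every adjusted p in the text is limma's. The study's detection flags were not used. All 76 members matched the RefSeq gene table by Entrez ID. The scripts were tested on simulated data.

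The members, lists and tests were chosen with earlier results of these data known. Named members are the 8 largest called rises and falls per comparison with arrays that do not overlap, the 5 largest F, Mrpl12, Mrps12, Mrps18a, Mrps18b, Mrps18c, Mrps30, Mrps36, and those whose probe sets were called in opposite directions. Of each related list the 3 largest called changes per comparison are the named ones, with Tufm, Dap3, Tfam and Polrmt whatever their values. Genes of the tunnel exit and stalk lists, and those of short counts, are named in addition, and examples of a list are not all of these. Alternatives changed the scaling, pseudocount, filter, trend, fold threshold, arrays in the fit, choice of probe set, replicate block and each array left out. Since each stage has 3 arrays, an exact permutation test of 2 stages cannot go below p = 0.1, and none was run.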

Additional observations from a re-analysis of the deposited data

How the results depend on the processing

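Direction held for the medians in CP and CM under every scaling, filter and choice of probe set that was run. After median centring of the arrays the median of the members was −0.72 in CP and −0.83 in CM against ES-LIF(+). The medians of all tested genes moved as well, to −0.24 and −0.26. In CP 50 members were then lower, where 27.4% of all tested genes were, and 1 was lower in CM against CP. Under quantile normalization the members' medians were −0.37 and −0.38, against −0.09 and −0.10 for all tested genes. The members thus lay closer to all tested genes than with the deposited scaling. Of the members 16 were then lower in CP and 26 in CM (34.2%, where 27.5% of all tested genes were). Without the fold threshold the counts were 54 lower in CP, 3 higher and 50 lower in CM, 4 lower in ES-LIF(-), and 6 higher and 14 lower in CM against CP. With a 2-fold threshold none was higher and 1 was lower in CP (1.3%, where 3.72% of all tested genes were lower), and 0 were higher and 9 lower in CM (11.8%, where 12.8% were), so the share of members was below that of all tested genes and the counts rest on changes between 1.5 and 2 fold. Leaving out each array in turn gave 20 to 23 lower in CP, 29 to 35 in CM, 0 to 1 in CM against CP, where the count of 1 came without CP replicate 3 and again without CM replicate 3, and 59 to 63 in the F test, with 1 higher in CP and CM throughout. Of the 23 genes called in CP, 17 kept the call whichever array was left out, and of the 33 in CM 29 did. The calls in CP lost in 1 or more of these fits were those of Mrpl12, Mrpl2, Mrpl9, Mrps25, Mrps27 and Mrps31, and in CM those of Mrpl35, Mrpl44, Mrps18c and Mrps26. Averaged over its probe sets Mrpl21 was at 0.25 in CP (adjusted p = 0.386) and 0.088 in CM (adjusted p = 0.746), and Mrpl3 at 0.043 in CM (adjusted p = 0.814), through their dim probe sets. By its probe set of smallest spread Mrpl13 was at −0.62 in CM (adjusted p = 3.34e-05). Same-numbered arrays of different stages did not deviate together (r from −0.05 to 0.10 over 18 pairs, and 3 of 12 arrays correlated best with their own number), and with the replicate block 22 genes were lower in CP, 32 in CM and 62 changed in the F test. In the order of the sample records, CP replicate 1 follows replicate 2 of the other stages, and CP replicates 2 and 3 follow their replicate 3. Pairing by replicate number therefore cannot show an effect shared by arrays that stand together in that order. With 3 arrays a stage, differences under about the 1.5-fold threshold between single genes are the least certain.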
